A study of Mus musculus with 6 samples.

Results

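Hmga1 and Hmga2 encode the HMGA proteins, small architectural proteins of chromatin. They were followed in primary Sertoli cells of the mouse, which nurse germ cells in the testis, with and without the prefoldin-like protein UXT (also called ART-27). The members were the rows of the authors' deposited table named Hmga1 or Hmga2, that is, 3 of its 3261 rows and 2 of its 3259 gene symbols. They were chosen for their place in the knockout comparison itself, so their difference between the groups is given as a description, with no test.

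Per the labels, all cells were Sertoli cells of C57BL/6 background that were enriched by differential plating and infected in culture. The 3 wild-type libraries (WT 1 to 3) came from wild-type cells that received an empty plasmid. The 3 knockout libraries (KO 1 to 3) came from UXT KO animals, and their cells received a viral construct with CRE recombinase. Cre was given to the knockout cells alone, so its effects and those of losing UXT cannot be told apart. The promoter that drives Cre was not given in the sources used here. Nothing in the labels ties the libraries to separate animals or cultures, so p-values measure the spread between these libraries alone, which may be technical. Uxt itself was looked for by symbol but had no row among those analysed here, so the knockout was not checked on its own transcript.

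HMGA proteins bind the minor groove of AT-rich DNA through short basic motifs called AT-hooks. They have no transcriptional activity of their own, but bend DNA and help other factors to assemble on it. Both genes are highly expressed in embryos and in many tumours and are low in most adult tissues. Mice without functional Hmga2 are the pygmy strain, small in body and with disturbed spermatogenesis. Hmga2 is also a classical target of the let-7 family of microRNAs, which act on its 3′ untranslated region.

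The deposited values of Hmga2 were higher in every knockout library than in any wild-type library, and so were those of its pseudogene Hmga2-ps1. Hmga2-ps1 is no member and was chosen after its values were seen. Because the pseudogene holds a near-complete copy of the Hmga2 coding sequence, the start of both is shown first. Capitals mark the bases that differ, which are either substitutions or bases found in the copy alone. Both were read from the GENCODE M21 transcripts (GRCm38), 5′ to 3′ on the sense strand.
Hmga2 coding sequence, bases 1 to 180: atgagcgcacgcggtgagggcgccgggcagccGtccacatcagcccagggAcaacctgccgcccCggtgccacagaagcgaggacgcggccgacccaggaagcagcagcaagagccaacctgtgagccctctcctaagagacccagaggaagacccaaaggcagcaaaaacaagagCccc
Hmga2-ps1 copy, bases 1 to 191: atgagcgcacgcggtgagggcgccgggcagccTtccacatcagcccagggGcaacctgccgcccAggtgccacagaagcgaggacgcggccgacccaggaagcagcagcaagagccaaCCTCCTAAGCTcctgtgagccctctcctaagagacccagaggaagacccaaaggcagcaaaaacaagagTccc
The whole Hmga2 coding sequence spans 327 bases and the copy 339 bases. They differ by 5 substitutions and by 12 bases inserted in the copy, and 98.5% of the aligned bases are the same. Counted from 1 at the A of the start codon of Hmga2, the substitutions are G33T, A51G, C65A, C177T and G303C. GENCODE names the copy Gm38158 and places it on chromosome 1 from 176835724 to 176836062. It lies inside the RefSeq locus Hmga2-ps1 (gene ID 15365, a transcribed pseudogene, chromosome 1, 176834624 to 176836133), and only these 339 bases of that locus were compared. Of the 3661 windows of 50 bases in the 3710-base Hmga2 transcript, 52 (1.42%) recur without a mismatch in the copy. They make up a larger share of the copy, which spans only 339 bases. Reads of the coding exons can thus be hard to assign, while the remaining windows of the Hmga2 transcript do not recur in the copy. Neither the read length nor the handling of reads with several matches was stated in the sources.

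Hmga2 (gene ID 15364, chromosome 10, 120361268 to 120476469 in GRCm38, minus strand) is a protein-coding gene. Its deposited log2 values were 8.17 in WT 1, 8.09 in WT 2 and 7.89 in WT 3. In the knockout they were 9.84 in KO 1, 9.48 in KO 2 and 9.67 in KO 3. The lowest knockout library lay above the highest wild-type library, so the groups did not overlap. Over all rows, 31.6% had every knockout library above every wild-type library and 65.7% the reverse. The mean went from 8.05 ± 0.14 to 9.67 ± 0.18 (SD, n = 3 each), a difference of 1.62 on the log2 scale of the deposited values. Within the libraries that share a replicate number, the difference was 1.68 for number 1, 1.39 for number 2 and 1.78 for number 3.

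The authors' deposited table gave Hmga2 a fold of 7.13, a log2 fold of 2.83. The difference of 1.62 between the library values was 0.57 of that log2 fold, and the transformation behind the library values was not stated. Among the 455 rows whose deposited average lay within 0.5 of that of Hmga2 (9.37), the median ratio was 0.59. The same 455 rows had a median SD of 0.0964 in wild-type and 0.128 in knockout libraries. The SD of Hmga2 was above both medians. Its shift of 1.62 was larger than the spread within either group, which selection on this contrast favours, so nothing is read from it.

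Of the 1049 rows with a positive log2 fold in the authors' deposited table, Hmga2 ranked at number 7 by that fold. By the difference of library values it also ranked at number 7 among the 3257 rows whose symbol stands on a single row. With both the adjusted p (under 0.05) and the fold (1.5 or more) of the authors' deposited table, 32.1% of all rows were higher and 67.8% lower. Hmga2 and the first Hmga1 row were among the higher rows, and since the members were chosen on this contrast nothing is read from their count.

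**Figure D1:**
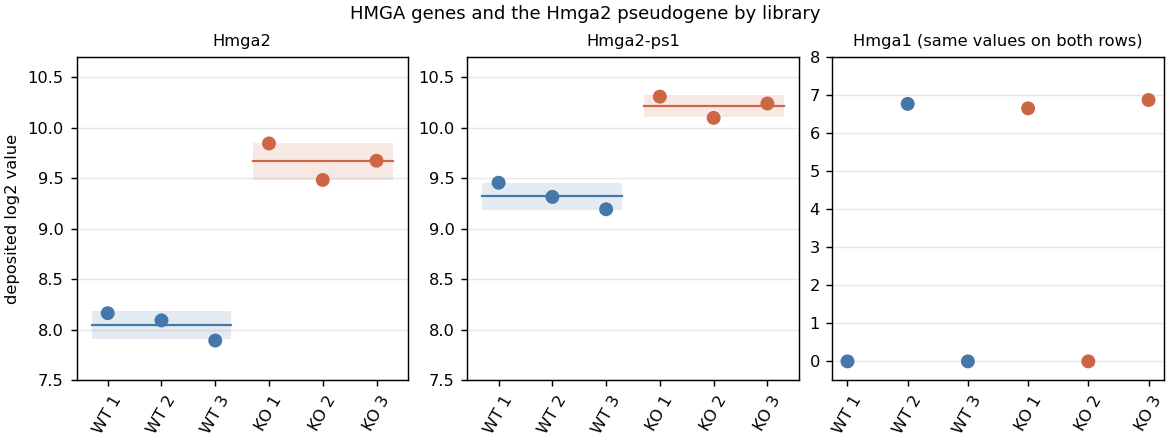
Deposited log2 value of Hmga2, Hmga2-ps1 and Hmga1 in each of the 6 libraries (blue, wild type; orange, knockout); lines are group means and shaded bands ± 1 SD (n = 3). The knockout libraries of Hmga2 (9.48 to 9.84) lie above the wild-type libraries (7.89 to 8.17), while Hmga1 is listed at 0 in 2 wild-type libraries and 1 knockout library.

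Hmga2-ps1 had log2 values of 9.46, 9.32 and 9.19 in WT 1, 2 and 3, and of 10.31, 10.10 and 10.24 in KO 1, 2 and 3. Its groups did not overlap either. Its mean was 9.32 ± 0.13 in wild-type and 10.22 ± 0.11 in knockout libraries (SD, n = 3 each), and limma gave a rise of 0.89 ± 0.10 (SE) with an adjusted p = 8.54e-05. Nearly all rows of the table already pass the fold and adjusted p given above, which rest on these same libraries, so limma's calls are not independent evidence, here and below. The fold in the authors' deposited table was 2.77, which ranked at number 93 of the 1049 positive rows. In Hmga2 as in Hmga2-ps1, WT 3 was the lowest wild-type library and KO 2 the lowest knockout library. How many other rows have the same lowest libraries was not counted, so no link between the loci is read from this. Whether reads of one locus were counted for the other was not tested.

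Hmga1 (gene ID 15361, chromosome 17, 27556574 to 27563672 in GRCm38, plus strand) stands on 2 rows that share this gene ID. The first row had a fold of 4.04 in the authors' deposited table, a log2 fold of 2.01, at an average of 7.46, and ranked at number 26 of the 1049 positive rows. The second row had a fold of 1.0 and a log2 fold of 0.0 in the authors' deposited table, with the average left blank. The 6 library values were the same on both rows. They were 0.0 in WT 1, 6.77 in WT 2 and 0.0 in WT 3, then 6.65 in KO 1, 0.0 in KO 2 and 6.87 in KO 3. Values at 0 and values near 6.8 thus alternated along the columns, and the groups overlapped.

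As listed, the mean of either Hmga1 row was 2.26 ± 3.91 in wild-type and 4.51 ± 3.91 in knockout libraries (SD, n = 3 each), a difference of 2.25. This difference is smaller than the spread within each group and moved between 1.07 and 4.51 as each library was left out in turn. It was 4.51 without WT 2 or without KO 2. Over the 6 columns the mean was 3.38, which is 4.08 below the average of 7.46 that the first row carries in the authors' deposited table. Among the 3257 rows whose symbol stands on a single row, the column mean lay between 1.69 and 0.02 below the deposited average, and none held a 0. The library values of Hmga1 therefore cannot be read as levels of Hmga1 in the libraries named by the columns, and no direction is drawn from them.

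Efna1, which encodes the Eph receptor ligand ephrin-A1 and is the only other symbol on 2 rows, showed the same alternation. Its values in column order were 10.45, 8.11, 10.56, 8.25, 10.47 and 8.17 on both rows. The odd columns of Efna1 averaged 10.49 ± 0.05 (SD over 3 columns), beside an average of 10.56 on its first row in the authors' deposited table. The even columns averaged 8.18 ± 0.07 (SD over 3 columns), beside 8.02 on its second row in the authors' deposited table. For Hmga1 the odd columns were all 0.0 and the even columns averaged 6.76 ± 0.11 (SD over 3 columns). For Hmga1 this leaves the fold of its first row in the authors' deposited table, and how that fold was derived for a symbol on 2 rows was not stated. Whether the columns of these 2 symbols hold the libraries in their headers, or values of 2 features in turn that might then come from the wild-type libraries alone, cannot be told from the table. The means of Hmga1 given above may thus not be means of the 2 groups.

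**Figure D2:**
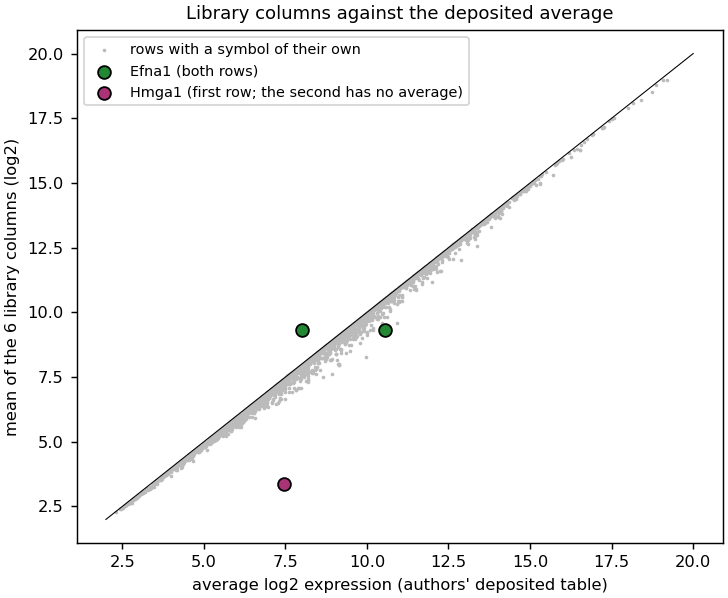
Mean of the 6 library columns against the average log2 expression of the same row in the authors' deposited table; the line marks equal values. Rows with a symbol of their own follow the line from just below it, while Hmga1 (3.38 against 7.46) and the 2 rows of Efna1 lie off it.

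The Hmga1 value also has a limit that comes from its sequence. The retrocopy Hmga1b (chromosome 11, 120762794 to 120764419 in GENCODE M21) has a coding sequence of 324 bases, and all 324 are the same as in Hmga1. Of the 1952 windows of 50 bases in the 2001-base Hmga1 transcript, 1349 (69.1%) recur without a mismatch in Hmga1b. The fold of Hmga1 is therefore uncertain where reads with several matches were split or dropped.

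**Figure D3:**
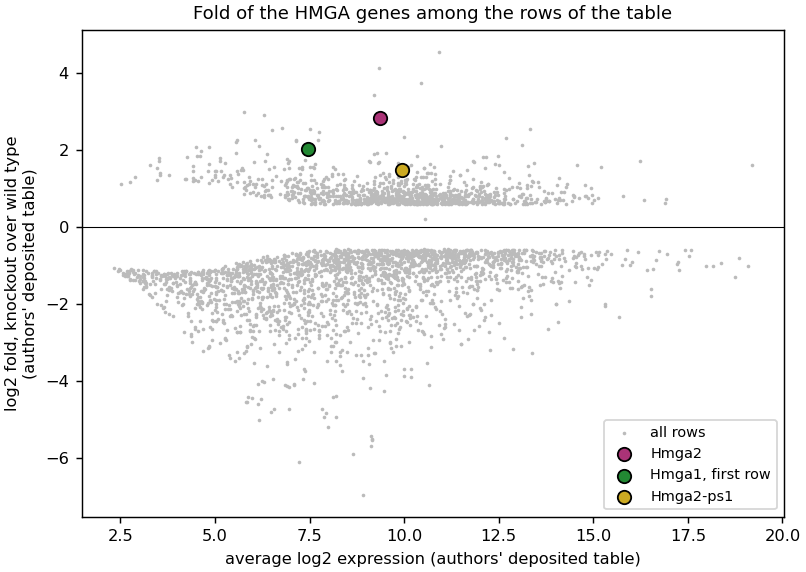
Log2 fold of every row (knockout over wild type) against its average log2 expression, both from the authors' deposited table, with no replicate error deposited. Hmga2 (2.83), the first Hmga1 row (2.01) and Hmga2-ps1 (1.47) lie on the higher side; few rows lie near 0.

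The sequences before the start sites of the members are shown for Hmga2, which was higher in the knockout, and for Hmga1, for which no direction was drawn from the library values. They are the 250 bases before the RefSeq start (GRCm38.p6), 5′ to 3′ on the sense strand. Capitals mark matches to any motif searched.
Hmga2, chr10:120476470-120476719, minus strand: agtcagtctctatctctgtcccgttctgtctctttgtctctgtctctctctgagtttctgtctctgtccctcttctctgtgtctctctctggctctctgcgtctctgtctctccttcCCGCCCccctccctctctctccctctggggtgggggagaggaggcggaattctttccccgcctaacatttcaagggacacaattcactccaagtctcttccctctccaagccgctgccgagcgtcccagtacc
Hmga1, chr17:27556324-27556573, plus strand: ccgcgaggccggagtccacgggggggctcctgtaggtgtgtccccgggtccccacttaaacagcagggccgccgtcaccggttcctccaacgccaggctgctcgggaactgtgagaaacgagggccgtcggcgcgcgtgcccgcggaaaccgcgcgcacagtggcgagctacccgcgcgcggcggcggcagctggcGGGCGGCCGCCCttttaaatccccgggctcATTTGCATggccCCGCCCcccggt
The 2 windows differ in composition. The Hmga2 window is a pyrimidine-rich stretch, with 70.8% C or T on the sense strand, a share reached by 0.414% of the 32851 promoters in the RefSeq table. The Hmga1 window holds 72.8% G or C and 34 CpG dinucleotides, against medians of 52.4% and 6 over those promoters. As many CpG dinucleotides were found in 3.53% of them. The RefSeq table lists 2 starts for Hmga1, and the window before the first is printed.

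Motifs were searched on both strands. GGGCGG, the GC box bound by SP factors, had 1 match in the Hmga2 window and 3 in the Hmga1 window, of which a pair in opposite orientation lie side by side, and 32.7% of all promoters hold it. ATTTGCAT, the octamer, had 1 match before Hmga1 and none before Hmga2, and 1.60% of promoters hold it. CCAAT (33.8% of promoters), TATAAA (12.4%), TGACTCA, the AP-1 site (4.46%), and CACGTG, an E-box (6.02%), had no match in either window. A match is a description of the letters and not a site of binding.

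The let-7 microRNAs were not measured in these libraries, but matches to their seed in Hmga2 are shown because the genes of that pathway were followed. Only full matches to the seed were searched, so other kinds of site are not listed. The RefSeq table (GRCm38.p6) holds 11 mature mouse microRNAs with the let-7 seed. Examples follow, with the seed (bases 2 to 8) in capitals.
let-7a-5p: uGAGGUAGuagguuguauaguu
let-7b-5p: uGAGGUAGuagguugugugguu
miR-98-5p: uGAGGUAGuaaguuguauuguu
The sequence CTACCTC, which pairs with this seed, occurs 4 times in the 2977 bases after the stop codon of the Hmga2 transcript. The sites are printed with 15 bases before and 1 base after the match, which is in capitals.
Hmga2 site 1, chr10:120364224-120364246, minus strand: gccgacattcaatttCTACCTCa
Hmga2 site 2, chr10:120362987-120363009, minus strand: ccccactcctcaataCTACCTCt
Hmga2 site 3, chr10:120362549-120362571, minus strand: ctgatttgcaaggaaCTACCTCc
Hmga2 site 4, chr10:120361691-120361713, minus strand: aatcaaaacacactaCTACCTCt
The first match begins 21 bases after the stop codon and is the only one followed by A. Of 2814 other genes with a 3′ untranslated region at least as long, 17.0% have a match in the first 2977 bases and 1 gene (0.0355%) has 4 or more. The Hmga1 transcript has 1 match in 1178 bases.

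Lists of genes around the HMGA proteins were then examined, with limma's call at an adjusted p under 0.05. The table holds rows that the authors selected for a change, so list genes outside it are not counted. Over all 3261 rows limma called 1044 higher (32.0%) and 2198 lower (67.4%), and the median log2 fold in the authors' deposited table was -0.88. How many rows fell depended on how the libraries were scaled. The median difference was 0.33 higher after quantile normalization, which gave 1048 higher and 1139 lower rows, a share of 52.1% lower among the called rows in place of 67.8%. Centring each library on its median raised it by 0.30 and gave 1112 higher and 1017 lower rows (47.8% lower). Hmga2 was higher under both rescalings, with differences of 1.96 and 1.91. The median deposited value lay between 9.15 and 9.18 in the wild-type and between 8.82 and 8.91 in the knockout libraries, and the depth was unknown.

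Of 30 genes of the wider HMG family, 1 was in the table. Tox, an HMG-box factor of lymphocyte development, was 3.52-fold higher in the authors' deposited table, with a limma difference of 0.24 (adjusted p = 0.00105), which was 0.43 after quantile normalization and 0.54 after centring. The library values of Tox were low, with means of 4.05 in the wild type and 4.29 in the knockout. Of 31 linker histones and other AT-hook proteins, the table held 5, and limma called 1 higher and 4 lower, with a median log2 fold of -0.72 in the authors' deposited table. By the authors' deposited table, the linker histone genes Hist1h1c and H1f0, whose products compact nucleosome arrays, fell 2.66-fold and 1.71-fold. Ahdc1, an AT-hook protein, fell 1.64-fold there, and Kmt2a, a histone methyltransferase with AT-hooks, rose 1.61-fold by the authors' deposited table. The limma difference of Kmt2a was 0.42. It no longer passed without WT 1 (0.39), was 0.25 without KO 3 and was 0.72 after centring. After quantile normalization 3 genes of this list were lower, and after centring 1 was, with Ahdc1 and H1f0 no longer passing.

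Of 52 genes of the LIN28 and let-7 pathway, which holds processing factors and let-7 targets, 11 were in the table. Of these 5 were higher and 6 lower by limma, with a median log2 fold of -0.77 in the authors' deposited table. Growth factor gene Gdf6 fell 2.92-fold, matrix glycoprotein gene Thbs1 2.17-fold and kinase gene Cdk6 1.95-fold by the authors' deposited table. Myc, the proto-oncogene and a known let-7 target, rose 1.97-fold in the same table, with limma values from 12.23 ± 0.06 to 12.87 ± 0.13 (SD, n = 3 each; adjusted p = 2.52e-04). The known let-7 targets on this list thus went in both directions. Under either rescaling 5 genes were higher and 3 lower.

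**Figure D4:**
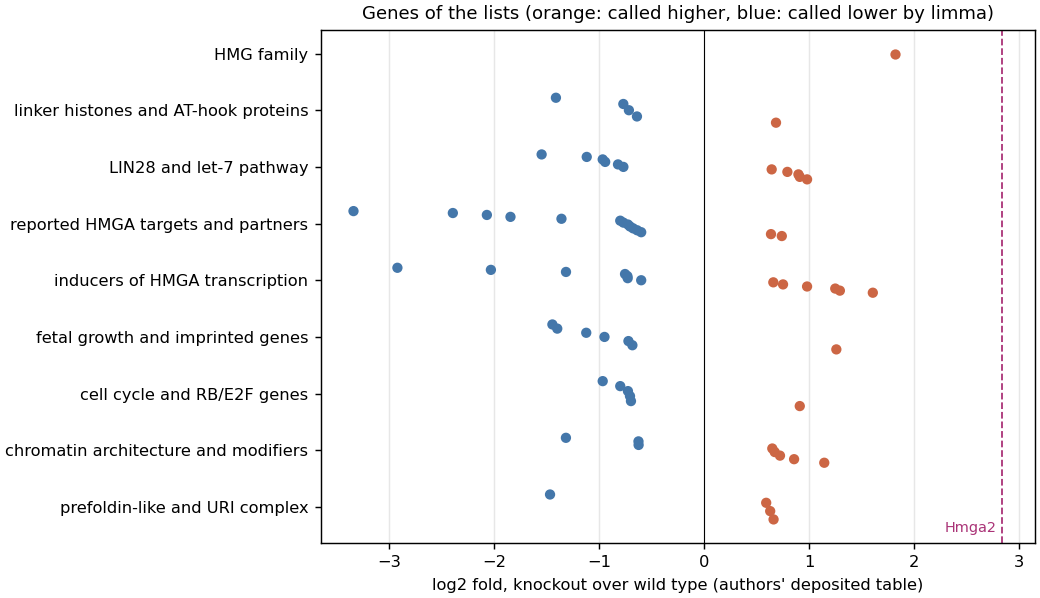
Log2 fold in the authors' deposited table of each gene of the lists that was in the table, as points by list (orange, called higher by limma; blue, called lower; no error deposited). The dashed line marks Hmga2 at 2.83, to the right of every other gene shown.

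Among 52 reported targets and partners of HMGA proteins, the table held 14, and limma called 2 higher and 12 lower, with a median log2 fold of -0.75 in the authors' deposited table. Nos2, the inducible nitric oxide synthase whose promoter binds HMGA1, fell 10.1-fold and Kit, the stem cell factor receptor, 4.19-fold by the authors' deposited table. By the same measure of the authors' deposited table, Igfbp3, which binds insulin-like growth factors, fell 3.59-fold and the cartilage collagen gene Col2a1 5.25-fold. The library values of Nos2 averaged 9.09 ± 0.26 in the wild type and 7.22 ± 0.27 in the knockout (SD, n = 3 each), and limma gave -1.87 with an adjusted p = 3.36e-05. The library values of Col2a1 were low, with means of 4.94 in the wild type and 4.44 in the knockout. Col2a1 did not pass the limma test without WT 2 (difference -0.44), after quantile normalization or after centring. By quantile normalization 7 genes of this list were lower and by centring 4, with 2 higher under each.

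Of 37 genes for factors that induce HMGA transcription, the table held 13, and limma called 6 higher and 7 lower, with a median log2 fold of -0.60 in the authors' deposited table. Pdgfb, a platelet-derived growth factor chain, fell 7.57-fold and the AP-1 subunit gene Fos 4.08-fold, while its relative Fosb rose 3.04-fold by the authors' deposited table. Egf, a growth factor gene, fell 2.49-fold by the authors' deposited table and did not pass under either rescaling. After quantile normalization 3 genes of this list were lower and after centring 2, with 6 higher under each.

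Of 27 fetal growth and imprinted genes, the table held 7, and limma called 1 higher and 6 lower, with a median log2 fold of -0.95 in the authors' deposited table. Meg3 and H19, both non-coding RNAs, fell 2.72-fold and 2.18-fold by the authors' deposited table. Nnat, a small membrane protein gene, fell 2.64-fold and Impact, a regulator of GCN2 signalling, rose 2.39-fold by the authors' deposited table. H19 and Nnat did not pass under either rescaling, which left 3 genes lower by quantile normalization and 2 by centring.

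Of 59 cell cycle and RB/E2F genes, the table held 6, and limma called 1 higher and 5 lower, with a median log2 fold of -0.72 in the authors' deposited table. Ccnd1, which encodes cyclin D1, rose 1.88-fold, while Cdkn2a, which encodes the INK4A and ARF inhibitors, fell 1.74-fold and the transcription factor gene E2f1 1.65-fold by the authors' deposited table. Cdk6 of this list is given above. Cdkn2a did not pass under either rescaling and E2f1 not after centring, and 3 genes were lower by quantile normalization and 1 by centring.

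All the lists were chosen with earlier results of these data known, and no list was tested as a set. Of 71 genes for chromatin architecture and modifiers, the table held 8, and limma called 5 higher and 3 lower, with a median log2 fold of 0.66 in the authors' deposited table. The deacetylase gene Hdac9 fell 2.49-fold and did not pass under either rescaling, and Sirt1, another deacetylase gene, rose 2.21-fold by the authors' deposited table. The acetyltransferase gene Crebbp rose 1.81-fold and the SWI/SNF subunit gene Smarcc1 1.65-fold in the authors' deposited table. Under both rescalings 5 genes were higher, with 1 lower gene by quantile normalization and 0 by centring.

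Of 16 genes of a list that joins canonical prefoldin with the URI prefoldin-like complex of UXT and its partners, the table held 4, and limma called 3 higher and 1 lower, as it did under both rescalings. Ruvbl1, an AAA+ ATPase gene, rose 1.58-fold and Rpap3, a co-chaperone gene, 1.55-fold by the authors' deposited table. Ruvbl2, the ATPase gene that partners Ruvbl1, had a log2 fold of 0.59 and Vbp1, which encodes a subunit of canonical prefoldin and not of the UXT complex, fell 2.76-fold by the authors' deposited table. The median log2 fold of this list was 0.61 in the authors' deposited table.

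The rows whose 6 library values, taken from their wild-type mean, lay closest to those of Hmga2 were sought by Euclidean distance. The closest was Slc7a8, a transporter of neutral amino acids, at a distance of 0.29. It was followed by the heat shock gene Hsph1 (distance 0.51), Osgin1, a target of the oxidative stress factor NRF2 (distance 0.57), and Prl2c2, a prolactin-like hormone gene with near-identical relatives and thus an uncertain value (distance 0.61). Slc7a8 had log2 values of 11.66, 11.58 and 11.37 in WT 1, 2 and 3 and of 13.27, 13.03 and 12.89 in KO 1, 2 and 3. Their folds in the authors' deposited table were 4.98 for Slc7a8, 4.36 for Hsph1, 5.79 for Osgin1 and 2.95 for Prl2c2. Hmga2-ps1 stood at number 41 in this order, at a distance of 1.26. The measure rests on 6 libraries and mostly on the size of the step between groups, so it is a description. For either Hmga1 row the same measure gave the other Hmga1 row (distance 0.0), Hsd3b1 (6.94), Adcyap1 (6.98) and Prl2c2 (7.51), from library values that could not be read.

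**Figure D5:**
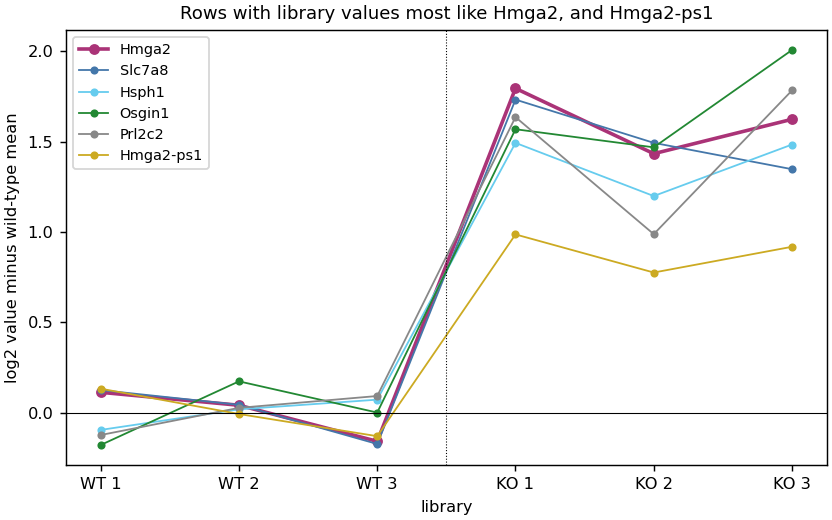
Deposited log2 value minus the wild-type mean of the same row in each library, for Hmga2, the 4 rows closest to it and Hmga2-ps1; lines only join the points of a row. The knockout values of Hmga2 and its 4 closest rows lie from about 1 to 2, and those of Hmga2-ps1 from 0.78 to 0.99.

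Of the 10 annotated RefSeq genes nearest to Hmga2 (5 on each side), 0 were in the table, and likewise 0 of those nearest to Hmga1. Among the 10 nearest protein-coding genes, a choice made after the values were seen, 1 was in the table for Hmga2 and 0 for Hmga1. That gene, Irak3, an inhibitor of interleukin-1 receptor signalling, fell 1.56-fold by the authors' deposited table. Irak3 did not pass the limma test under either rescaling.

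Markers of cell types moved with the groups in which Hmga2 differed. The table holds only rows selected for a change, and over all its rows limma called 67.4% lower and 32.0% higher. Of 27 Sertoli markers 19 were in the table and all 19 fell by limma, but 14 fell after quantile normalization, and after centring 13 fell and 1 rose. Their summed level, as the log2 of the sum of 2 raised to each deposited value, was 17.87 to 18.22 in wild-type and 16.89 to 17.15 in knockout libraries. As the transformation of these values was not stated, such sums need not follow the folds in the authors' deposited table. All 17 macrophage markers in the table, of 20, fell (summed level 15.03 to 15.38 against 13.55 to 13.80), as did all 18 endothelial markers, of 20 (14.02 to 14.12 against 13.19 to 13.39). In the authors' deposited table the median log2 fold was -2.55 for these macrophage and -3.42 for these endothelial markers. The 6 fibroblast markers in the table, of 12, fell (20.47 to 20.62 against 19.40 to 20.14), and so did the 8 myoid markers, of 10 (19.03 to 19.35 against 18.54 to 18.74). The 3 Leydig markers in the table, of 10, rose (15.15 to 15.35 against 15.71 to 16.04). Of the 4 germ cell markers in the table, of 19, 1 was higher and 2 lower by limma (11.64 to 12.10 against 12.16 to 12.41), and Alas2, the 1 red blood cell marker in the table, of 8, fell. The germ cell sum was mostly that of the 1 marker called higher (mean 11.80 in wild-type and 12.25 in knockout libraries). Sums of the other lists also weigh their highest markers most. Under the rescalings 16 or 17 macrophage and 16 or 17 endothelial markers fell, as did 4 fibroblast and 6 or 7 myoid markers, and the 3 Leydig markers rose under both. None of the markers in the table was at 0 in any library. The part of cell composition in the difference of Hmga2 was not tested, and in bulk samples fewer cells of a type and less RNA per cell cannot be told apart.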

How the data were processed

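RNA of 6 libraries was compared, 3 wild-type and 3 knockout, grouped and numbered by the sample titles. Per the submitters' processing notes, the tools were FastQC, STAR and DESeq2 and the build was mm10. Read counter, annotation and use of strand are not given in the sources used here. Per the labels' protocols, a stranded library kit was used. Per the file headers, the authors deposited a table with a signed fold score, a log2 fold change, a p-value and an adjusted p-value, an average log2 expression and a log2 value per library. How the authors normalized and transformed the deposited log2 values was not stated. No counts were used, so no counting interval was computed.

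By its name, the deposited table holds rows up or down 1.5-fold at a p-value of 0.05. Shares over all rows are thus shares of this selection. All rows of the table were fitted with limma 3.58.1 (R 4.3.3), using its trended variance prior and neither covariates nor a further filter. P-values were adjusted over its 3261 rows by the Benjamini-Hochberg method. Because these rows were selected on the same contrast, the adjusted p does not bound the share of false calls. The fit was checked on simulated data in which most rows did not differ, unlike this table. No test is given for the members. The members and lists were chosen with earlier results of these data known. Named genes were the members, up to 4 genes per list with the largest deposited log2 fold, the 4 rows closest to each member row, and genes of the table among the 5 annotated neighbours on each side. Hmga2-ps1, Efna1, Irak3 and Alas2 were named outside this rule, after their values were seen. The 4 rows of Hmga1 and Efna1 were kept. Transcripts came from GENCODE M21 and were picked by transcript name. Start sites and microRNAs came from RefSeq (GRCm38), where the 2 members were found by symbol, with the gene ID of the deposited table. Sequences were compared with Biopython 1.88. Alternatives were another scaling, each library left out, a replicate block, a filter on low rows, no trend, no rows that share a symbol, and a stricter threshold.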

Additional observations from a re-analysis of the deposited data

How the results depend on the processing

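Hmga2 was higher in the knockout under every alternative run. Its groups did not overlap, so leaving out a library, taking group medians or adding a replicate block could not change that direction. Centring could only raise the difference, as the knockout libraries had the lower medians. The difference of Hmga2 was 1.96 after quantile normalization and 1.91 with each library centred on its median. It was 1.95 when rows that share a symbol were left out of the quantile step (chosen after seeing the data). It ran from 1.53 to 1.71 with each library left out. Rows called lower numbered 1139 by quantile normalization and 1017 by centring, against 2198; normalization within a table selected by fold assumes that its higher and lower genes balance. The difference of each Hmga1 row, 2.25 as listed, was 6.65 by group medians and 1.07 to 4.51 with each library left out. Libraries that share a replicate number showed little shared deviation (correlations of deviations 0.18, -0.07 and -0.00), which does not settle whether they were paired. A replicate block gave 1.62 for Hmga2, 2.25 for each Hmga1 row, and 1044 higher and 2206 lower rows. Of 41 other named genes (Efna1, whose columns could not be read, was not among them), 7 no longer passed by quantile normalization and 10 by centring, and none changed direction where an alternative gave a value. The filter on low rows gave a value for 34 of the 41 and none for Hmga1, and no pseudocount applied to log2 values.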
